A study of Mus musculus with 16 samples.

Results

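Igf2 and 9 further imprinted genes of growth control were followed in fibroblasts of the mouse dermis, cells that build the collagen matrix of skin. The 10 genes (Igf2, H19, Igf2r, Peg3, Mest, Plagl1, Cdkn1c, Grb10, Ndn and Zim1) were taken by platform gene symbol, and where a gene had several probe sets the one with the highest mean stood for it. Of these, 7 had a probe set annotated to that gene alone, and all 7 passed the filter on dim probe sets and were among the 14819 genes tested, of 17097 genes with a probe set. H19 had no listed probe set, and Igf2r and Mest were listed only on probe sets annotated to a second gene as well (Airn and Copg2), so no value is given for these 3. The probe sets were chosen by their mean intensity over the 16 arrays, and the genes were selected on their names with earlier results for Igf2 and Cdkn1c known. The age difference of Igf2 in freshly isolated cells, its culture change and their interaction, which rest on the same in vivo arrays, and the culture change of Cdkn1c are therefore given as descriptions, with no test.

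All cells came from female C57Bl/6 mice, an inbred laboratory strain, with no transgene or treatment named. The 16 arrays form 4 groups of 4: cultured cells of old mice (18 months), cultured cells of young mice (2 months), cells of old mice profiled directly after isolation, and cells of young mice profiled in the same way. The labels call the freshly isolated cells in vivo, and that name is kept here. Each of the 4 old and 4 young mice gave 5000 cells to each condition, with old and young mice processed in equal number on each collection day, and the cDNA was amplified over 23 cycles. Which arrays share a mouse or a day, and how long the cells were cultured, is not stated in these sources.

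Imprinted genes are transcribed mainly from the allele of 1 parent, and many of them act on fetal growth. Igf2, expressed from the paternal allele, encodes a growth factor that signals through the IGF1 and insulin receptors. H19, a noncoding RNA of the maternal allele, lies beside Igf2 and shares enhancers with it, and Igf2r encodes the receptor that carries IGF2 to lysosomes. In mice Igf2 is abundant before birth and is repressed in most tissues during postnatal growth. Plagl1 (also called Zac1) and Peg3 encode zinc finger proteins expressed from the paternal allele, and in mouse cells Plagl1 has been found to bind the enhancers shared by Igf2 and H19. Cdkn1c, maternally expressed, encodes p57, an inhibitor of cyclin-dependent kinases, and Grb10 encodes an adaptor that dampens insulin and IGF1 receptor signalling. Expression arrays do not tell the alleles apart, and in a bulk sample fewer cells of a type and less RNA per cell cannot be told apart.

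The promoters of the 3 members with the widest differences between young and old in vivo cells are shown so that their base composition and motifs can be read beside the values. The windows, from RefSeq on assembly GRCm38.p6, run from 250 bases before to 50 bases after an annotated start. Capitals mark matches, on either strand, to GGGGCCCC, TATAAA or CCAAT.

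Igf2, chr7:142657447-142657746, minus strand, 1 of 4 annotated starts: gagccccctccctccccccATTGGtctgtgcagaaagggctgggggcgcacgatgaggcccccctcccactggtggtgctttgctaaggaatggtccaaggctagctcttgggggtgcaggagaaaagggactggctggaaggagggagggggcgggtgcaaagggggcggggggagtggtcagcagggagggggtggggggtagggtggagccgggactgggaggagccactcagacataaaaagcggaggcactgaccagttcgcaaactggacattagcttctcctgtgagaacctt

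Peg3, chr7:6730370-6730669, minus strand: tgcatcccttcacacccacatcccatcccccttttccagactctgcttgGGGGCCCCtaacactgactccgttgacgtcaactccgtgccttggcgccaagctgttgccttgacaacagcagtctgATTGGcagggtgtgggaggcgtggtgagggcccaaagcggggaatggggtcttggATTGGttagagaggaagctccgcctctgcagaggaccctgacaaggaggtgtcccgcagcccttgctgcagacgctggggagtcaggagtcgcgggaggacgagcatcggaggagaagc

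Plagl1, chr10:13090582-13090881, plus strand: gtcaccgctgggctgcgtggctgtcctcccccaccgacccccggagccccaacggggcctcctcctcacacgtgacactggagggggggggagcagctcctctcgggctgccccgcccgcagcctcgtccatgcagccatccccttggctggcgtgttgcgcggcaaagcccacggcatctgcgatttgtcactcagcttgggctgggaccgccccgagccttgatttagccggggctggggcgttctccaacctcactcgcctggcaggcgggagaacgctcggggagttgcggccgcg

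The Plagl1 window was the richest in G and C (70.7%) and held 26 CG dinucleotides, the sites of DNA methylation. The Peg3 window held 13 at 61.3% G and C, and the Igf2 window shown held 7 at 63.3%. Over all 32851 windows the median was 7 CG dinucleotides, with quartiles of 3 and 20. The other Igf2 starts held 24, 14 and 2. The Peg3 window held GGGGCCCC at position -201 from the start. This word is the core of an element bound by Plagl1-type zinc finger proteins, was chosen after the sequence was seen, and occurs in 1.08% of all windows. The reverse complement of CCAAT stood at 2 places in the Peg3 window and 1 in the Igf2 window, and 37.4% of all windows hold CCAAT on either strand. TATAAA, found in 13.6% of windows, was in none of the 3. RefSeq windows were present for 8 of the 10 genes.

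Values are log2 intensities as deposited, and a fold is 2 to the power of the difference in log2 values. Levels of different probe sets are not compared, since each binds its target with its own strength. Background was gauged by 12 poly-A control probe sets, whose values had their 95th percentile at 4.75 (log2), and a difference measured near or below this level understates the true one. The mean log2 intensity of 9 fibroblast markers lay between 9.05 and 10.6 on the 16 arrays, in keeping with the labelled cell type. Arrays correlated at 0.987 to 0.996 within the cultured condition, 0.977 to 0.992 within the in vivo condition and 0.879 to 0.913 between them. Every adjusted p below is from limma, two-sided, adjusted by the Benjamini-Hochberg method over all tested genes with a threshold of 0.05, and errors of differences are standard errors of the fit.

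**Figure D1:**
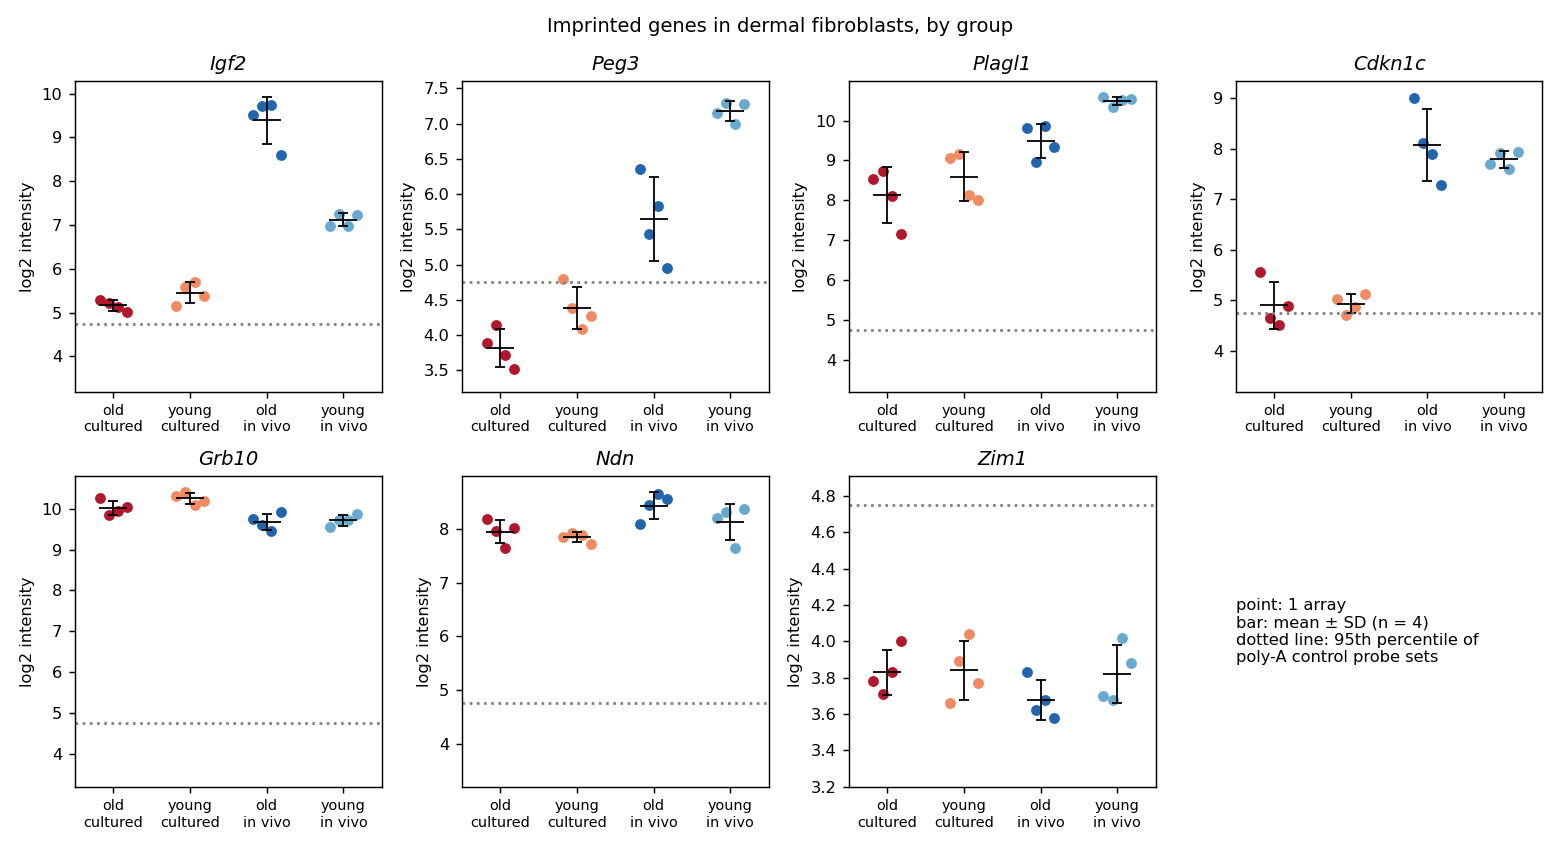
Log2 intensity of the 7 measured genes on each of 16 arrays, by group, with the mean and SD (n = 4) and a dotted line at the 95th percentile of the poly-A control probe sets (4.75). Igf2 is highest on the 4 old in vivo arrays (8.60 to 9.74), Peg3 and Plagl1 are highest on the 4 young in vivo arrays, and Zim1 lies below the line on every array.

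Igf2, the growth factor, was brightest in freshly isolated cells of old mice. Its log2 intensity was 9.52, 9.71, 9.74 and 8.60 in old in vivo cells, against 6.99, 7.26, 6.99 and 7.23 in young in vivo cells. Each old in vivo array lay above each young one, and replicate 4 was the lowest of the old arrays. The means were 9.39 ± 0.54 in old and 7.12 ± 0.15 in young in vivo cells (SD, n = 4 each), a difference of 2.28 ± 0.23 or 4.84-fold. By size this was rank 8 of the 14819 genes tested, and only 1 gene had a larger difference in the direction of higher in old. A second Igf2 probe set averaged 8.51 ± 0.69 in old and 6.21 ± 0.25 in young in vivo cells, a difference of 2.30 ± 0.29. Without old in vivo replicate 4 the difference was 2.54, and over all alternatives it lay between 2.16 and 2.54.

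In culture this difference was not seen. Igf2 measured 5.29, 5.23, 5.14 and 5.01 in old cultured cells, against 5.16, 5.59, 5.70 and 5.37 in young cultured cells. The groups overlapped, and the means were 5.17 ± 0.12 in old and 5.46 ± 0.24 in young cultured cells (SD, n = 4 each). The difference of -0.29 ± 0.12 (95% interval -0.56 to -0.02) had an adjusted p of 0.997. No gene passed the threshold for age in culture (0% called), although by limma 533 genes (3.6%), Igf2 among them, had an unadjusted p under 0.05, and 2.06% of genes had groups that did not overlap. The age difference in culture minus that in vivo was -2.56 ± 0.28, given as a description. The cultured means lay not far above the poly-A control level of 4.75, so the age difference in culture may be understated.

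Every cultured array lay below every in vivo array for Igf2. In old cells the difference was -4.23 ± 0.20, or 18.7-fold, and in young cells it was -1.66 ± 0.20, or 3.17-fold. The mean of both is -2.94 ± 0.14, or 7.69-fold, to which the high level of the old in vivo cells contributes. The order of levels was therefore old in vivo, young in vivo, young cultured and old cultured, of which the last pair overlapped. All 8 cultured arrays lay above the poly-A control level on this probe set. The second probe set, at 4.67 to 5.01 in old and 4.52 to 4.84 in young cultured cells, lay at that level, so its culture difference of -2.62 may be an underestimate.

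Peg3, the paternally expressed zinc finger gene, fell with age in vivo. Its log2 intensity was 6.36, 5.44, 5.83 and 4.95 in old in vivo cells, against 7.15, 7.29, 6.99 and 7.27 in young in vivo cells. Every old array lay below every young one, and the old arrays were spread more widely (SD 0.60, against 0.14 in young). The difference of -1.53 ± 0.25, or 2.89-fold lower, passed the threshold (adjusted p = 0.0184). Among all tested genes 1.35% were called for age in vivo, 0.911% higher and 0.439% lower in old, and 8.53% had groups that did not overlap. The direction was kept under every alternative run (-2.05 to -1.30), but the call was lost without young in vivo replicate 2 (adjusted p = 0.0683), 3 (0.0577) or 4 (0.0557), or old in vivo replicate 2 (0.0648). With 1 array left out, the count of genes called for age in vivo itself ranged from 60 to 306, against 200 with all 8 arrays. A second Peg3 probe set showed a difference of -2.05 ± 0.28 (adjusted p = 0.00816).

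Culture lowered Peg3 to the level of the poly-A controls. It measured 3.89, 4.15, 3.72 and 3.52 in old cultured cells and 4.79, 4.38, 4.08 and 4.27 in young cultured cells, and only 1 of these 8 arrays lay above 4.75. Averaged over the ages the difference was -2.31 ± 0.16, or at this brightness an observed 4.96-fold (adjusted p = 1.00e-09), which understates the fall. It was -1.83 ± 0.23 in old and -2.80 ± 0.23 in young cells. The age difference in culture was -0.56 ± 0.17 (95% interval -0.94 to -0.18, adjusted p = 0.997), with 1 old array above 1 young one and both groups near background.

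The change in the Peg3 age difference between culture and in vivo was 0.97 ± 0.32 and missed the threshold (adjusted p = 0.210), where 0.587% of genes were called. It passed without old in vivo replicate 1 (1.21, adjusted p = 0.0369), with the mean of both probe sets (1.42, adjusted p = 0.0482) and on the second probe set alone (1.87, adjusted p = 0.0116). The cultured means lay below the control level on the main probe set (3.82 in old, 4.38 in young) and on the second (3.85 and 4.03). There an age difference is understated, so these values cannot show that the age difference itself changed in culture.

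Plagl1, the other zinc finger gene, was also lower in old in vivo cells. It measured 9.81, 8.95, 9.87 and 9.34 in old in vivo cells, against 10.59, 10.35, 10.52 and 10.53 in young in vivo cells. The groups did not overlap, and the young arrays lay close together (SD 0.10, against 0.43 in old). The difference was -1.01 ± 0.19, or 2.01-fold lower (adjusted p = 0.0333). This call was close to the threshold. It was lost without young in vivo replicate 1 (adjusted p = 0.0657), 2 (0.0762), 3 (0.0951) or 4 (0.0829), or old in vivo replicate 2 (0.0556) or 4 (0.0766). It was also lost with all 16 arrays in one fit (0.0720) and with the mean of both probe sets (0.0604). A second probe set had a difference of the same size, -0.96 ± 0.29, with an adjusted p of 0.154.

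Plagl1 fell with culture at both ages and stayed well above the control level. It measured 8.53, 8.73, 8.11 and 7.16 in old cultured cells, and 9.06, 9.17, 8.14 and 8.01 in young cultured cells. The difference averaged over the ages was -1.63 ± 0.22, or 3.10-fold (adjusted p = 4.61e-06). It was -1.36 ± 0.32 in old cells (adjusted p = 0.00133) and -1.90 ± 0.32 in young cells (adjusted p = 5.33e-05). Between the ages in culture the difference of -0.46 ± 0.37 had a 95% interval from -1.31 to 0.38. The interaction was 0.54 ± 0.45 (adjusted p = 0.673).

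**Figure D2:**
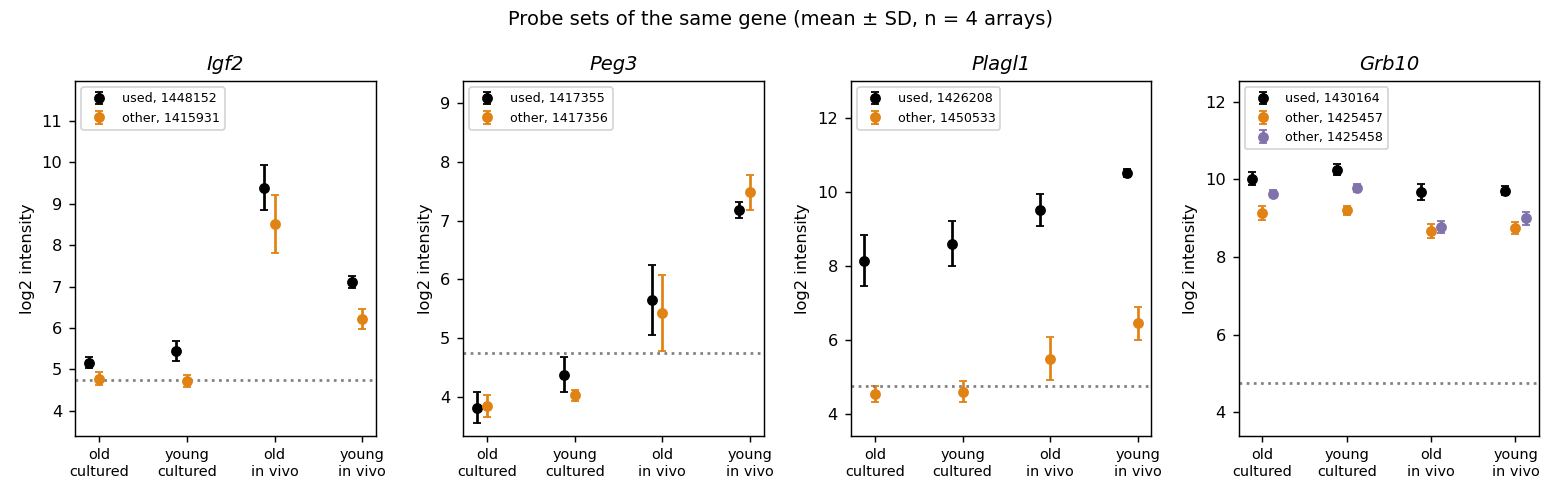
Mean log2 intensity ± SD (n = 4 arrays) by group for the probe set used and the other probe sets of Igf2, Peg3, Plagl1 and Grb10, with the poly-A control level dotted. Within a gene each probe set places the cultured cells on the same side of the in vivo cells. In cultured cells the second sets of Igf2 and Plagl1 lie near the dotted line, and the means of both Peg3 sets lie below it.

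Cdkn1c, encoding the cell cycle inhibitor p57, was close to the control level in culture. Its log2 intensity was 5.56, 4.65, 4.51 and 4.90 in old cultured cells and 5.03, 4.72, 4.88 and 5.13 in young cultured cells. In vivo it was 9.01, 8.11, 7.89 and 7.28 in old cells and 7.70, 7.92, 7.60 and 7.94 in young cells. Every cultured array thus lay below every in vivo array, with a difference over both ages of -3.01 ± 0.19, or 8.05-fold, of a similar size in old (-3.17) and young cells (-2.85). Of the cultured arrays, 2 of 4 old and 3 of 4 young ones lay above the control level, so this fold is a low estimate. By age Cdkn1c passed in neither condition. The difference in vivo was 0.28 ± 0.29 (95% interval -0.36 to 0.92, adjusted p = 0.701), with old arrays both above and below the young ones, and in culture it was -0.03 ± 0.21.

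Grb10, which dampens insulin and IGF1 receptor signalling, was the 1 member that rose with culture. It measured 10.26, 9.85, 9.95 and 10.03 in old cultured cells and 10.32, 10.41, 10.10 and 10.18 in young cultured cells. In vivo it measured 9.74, 9.59, 9.46 and 9.92 in old cells and 9.55, 9.72, 9.73 and 9.86 in young cells. The young groups did not overlap and differed by 0.54 ± 0.11, or 1.45-fold (adjusted p = 5.62e-04), while the old groups overlapped and differed by 0.34 ± 0.11 (adjusted p = 0.0151). The mean over both ages was 0.44 ± 0.08 (adjusted p = 1.07e-04), and the 2 other probe sets gave 0.46 and 0.82. This rise depends on the scaling of the arrays: after cyclic loess it was 0.13 (adjusted p = 0.179), and after scaling to the 75th percentile it was lost in old cells (0.19, adjusted p = 0.168). In old cells it was also lost without old in vivo replicate 3 (adjusted p = 0.0563) or old cultured replicate 1 (0.0604). Age made no called difference to Grb10, at -0.04 ± 0.12 in vivo (adjusted p = 0.921) and -0.23 ± 0.10 in culture (adjusted p = 0.997).

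Ndn, encoding necdin, a paternally expressed protein that restrains cell division, changed little. It lay between 7.65 and 8.18 in old cultured, 7.72 and 7.93 in young cultured, 8.08 and 8.65 in old in vivo, and 7.64 and 8.36 in young in vivo cells. With culture it fell by 0.38 ± 0.11 on the log2 scale over both ages (adjusted p = 0.00466). The fall passed in old cells (-0.48 ± 0.16, adjusted p = 0.0130) and not in young cells (-0.28 ± 0.16, adjusted p = 0.113), where it passed without young in vivo replicate 3 (-0.45, adjusted p = 0.00891). By age Ndn differed by 0.30 ± 0.18 in vivo (adjusted p = 0.466).

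Zim1, a maternally expressed zinc finger gene beside Peg3, lay between 3.58 and 4.04 on every array, below the control level. It had no call in any comparison as reported, with a culture difference of 0.09 ± 0.07 (adjusted p = 0.283), and at this brightness a difference may not be detectable.

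**Figure D3:**
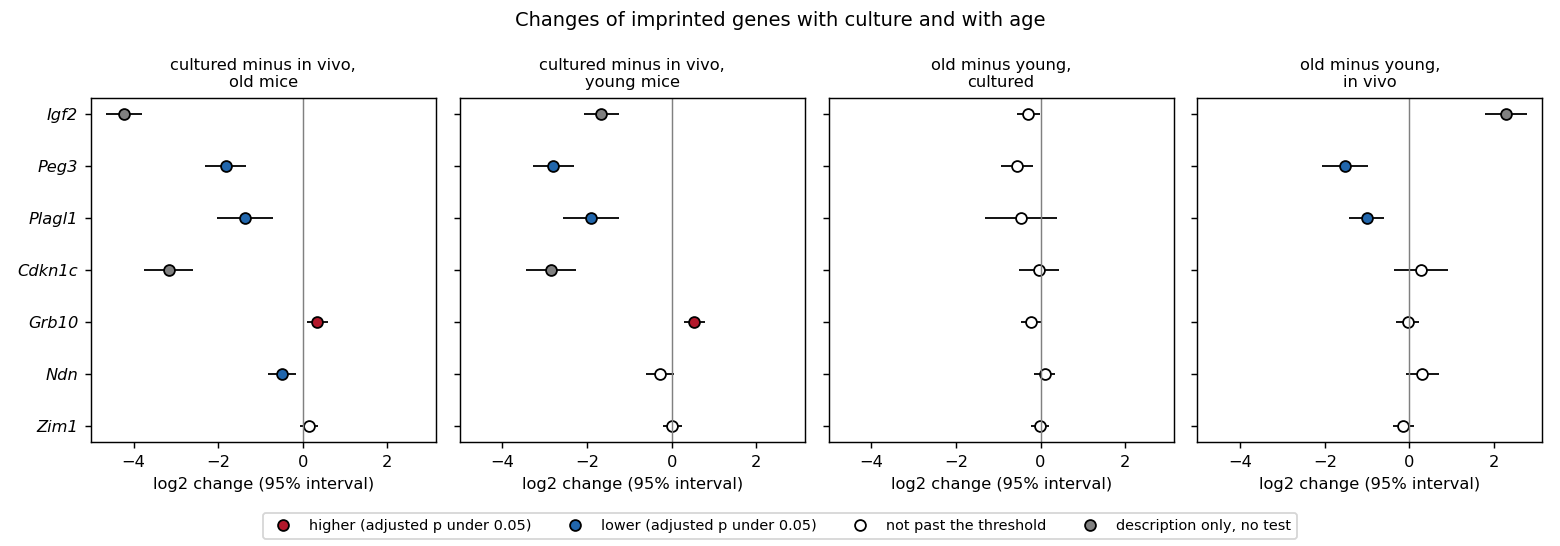
Log2 change of the 7 genes with its 95% interval for culture in old and in young mice and for age in culture and in vivo. Red and blue points passed an adjusted p of 0.05, white points did not and grey points are descriptions with no test; Igf2 is at 2.28 for age in vivo and at -4.23 for culture in old mice.

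Taken by comparison, 2 of the 6 members tested for age in vivo were called, Peg3 and Plagl1, both lower. Over all genes 1.35% were called in either direction and 0.439% were called lower. The median difference of the 7 members was -0.04, against 0.02 over all genes. In culture 0 of 7 were called for age by limma (2 had an unadjusted p under 0.05), with a median of -0.23 against 0.00 (0.0025) over all genes. Averaged over the ages, 3 of 5 members tested fell with culture (Peg3, Plagl1 and Ndn) and 1 rose (Grb10), beside 44.7% of all genes lower and 34.8% higher. A call for culture was the usual outcome on these arrays (79.5% of genes), so nothing is read from the members' count. The median change of all 7 members was -1.63, against -0.11 over all genes. It includes Igf2 and Cdkn1c, whose culture changes were known when the genes were chosen. Among the 5 tested members the middle change was that of Ndn (-0.38). In old cells 62.8% and in young cells 71.2% of all genes were called for culture, beside 4 of the 5 members tested in old cells and 3 of 5 in young cells. The conditions did not overlap for 4 of the 7 members in old, 5 in young and 3 over both ages. Over all genes the shares were 58% in old, 63.6% in young and 45.1% over both ages. Each of these member counts includes Igf2 and Cdkn1c, whose culture changes were known beforehand, so nothing is read from them.

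Among the 38 measured genes of a list of 55 other imprinted genes, outside the Dlk1-Meg3 locus, 0 were called by limma for age in vivo (median -0.05) and 0 in culture. At an unadjusted p under 0.05 there were 3 in each condition, beside 15% of all genes in vivo and 3.6% in culture. Culture raised 14 of the 38 and lowered 17, with a median of -0.08, beside 34.8% of all genes higher and 44.7% lower, so the list's calls were split much as those of all genes. The widest changes were a rise of Slc38a4, an amino acid transporter gene (4.60 ± 0.52), and of Tfpi2, a protease inhibitor gene (2.13 ± 0.17). The matrix proteoglycan gene Dcn, also among the fibroblast markers, fell by 1.68 ± 0.07 on the log2 scale, and Airn, the antisense RNA of Igf2r, fell by 1.60 ± 0.09. Slc38a4 was uneven in culture, at 5.14 to 10.28 in old and 8.04 to 9.98 in young cells, against 3.66 to 4.17 in old and 3.65 to 4.67 in young in vivo cells. In the imprinted Dlk1-Meg3 locus on another chromosome, 3 of 4 measured genes were called for age in vivo, beside 1.35% of all genes. These neighbours within 1 locus, the noncoding RNAs Meg3 (-1.56 ± 0.11), Rian (-2.55 ± 0.12) and Mirg (-2.62 ± 0.23), were all lower in old cells.

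**Figure D4:**
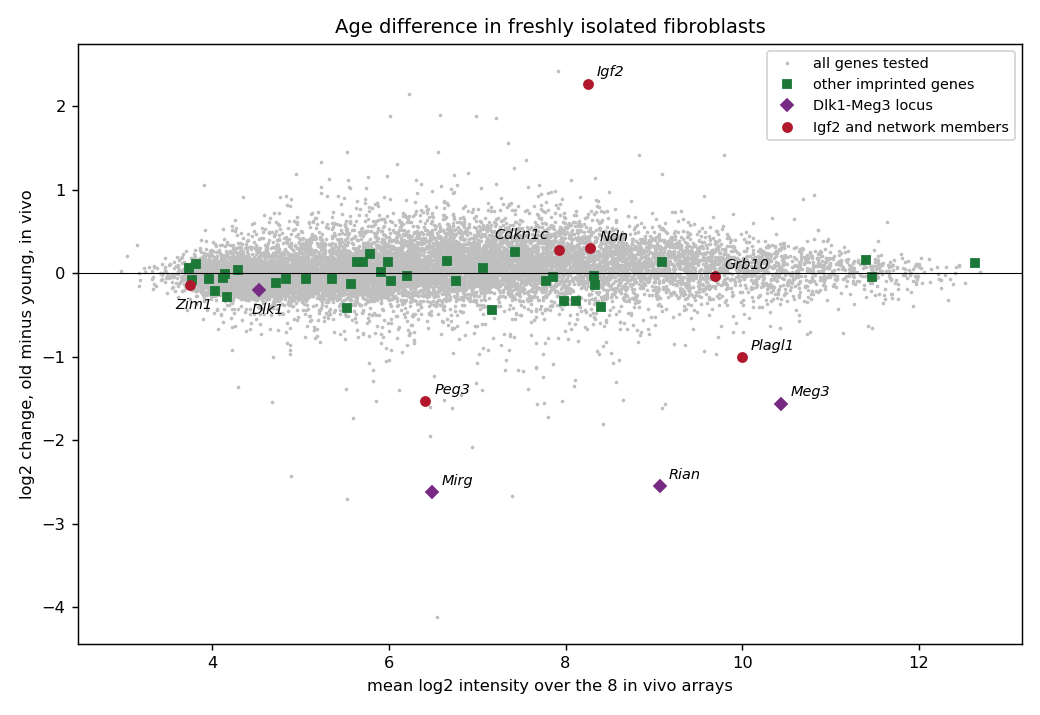
Difference between old and young in vivo cells (log2) against the mean log2 intensity over the 8 in vivo arrays for the 14819 tested genes, with the 7 members, the 38 other imprinted genes and the Dlk1-Meg3 locus marked. Igf2 lies near the top at 2.28, Peg3, Plagl1, Meg3, Rian and Mirg lie below -1, and the other imprinted genes lie within the cloud of all genes.

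**Figure D5:**
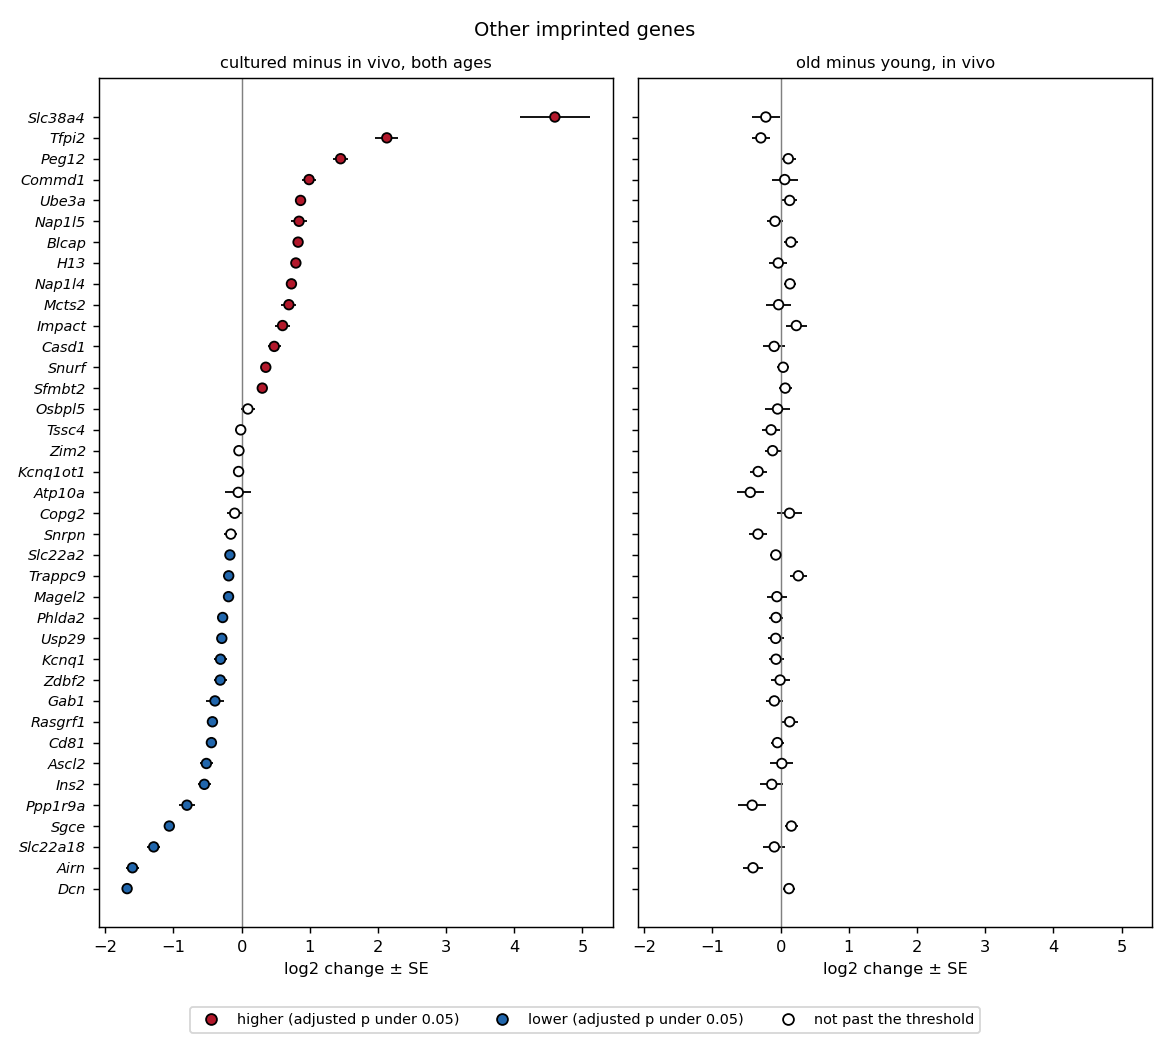
Log2 change ± SE of the 38 other imprinted genes for culture over both ages (left) and for age in vivo (right), ordered by the culture change. Culture raised 14 and lowered 17 of them, and none was called for age in vivo.

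The genes around Igf2, Peg3 and Plagl1 held no call for age in vivo. Within 1000 kb of Igf2 on the RefSeq annotation 32 genes were tested, and 0 of them were called for age in vivo by limma (median -0.08), beside 1.35% of all genes, with 4 at an unadjusted p under 0.05. Ins2, the insulin gene next to Igf2, differed by -0.13 ± 0.17, and Kcnq1ot1, the noncoding RNA of the neighbouring imprinted domain that holds Cdkn1c, by -0.33 ± 0.13 (adjusted p = 0.237). Around Peg3, 0 of 21 genes were called for age in vivo and 0 had an unadjusted p under 0.05 by limma, with Usp29 at -0.07 ± 0.12 and Zim2 at -0.12 ± 0.12. Around Plagl1, 0 of 11 were called by limma and 4 had an unadjusted p under 0.05. Over all genes 15% had an unadjusted p under 0.05 in vivo. With culture, 22 of the 32 genes near Igf2 fell and 5 rose. The 22 include Cdkn1c, whose culture change was known when the genes were chosen. Of the 21 genes near Peg3, 14 fell and 1 rose, and of the 11 near Plagl1, 5 fell and 5 rose. Over all genes 44.7% were lower and 34.8% higher with culture.

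Genes that receive the IGF2 signal showed no called age difference. Of 9 measured genes of reception and signalling, 0 were called for age in vivo by limma and 2 had an unadjusted p under 0.05. Over all genes the shares were 1.35% and 15%, so no call was the usual outcome. Igf1r, the main signalling receptor, differed by 0.42 ± 0.12 (adjusted p = 0.117). With culture 5 of the 9 fell and 1 rose, fewer calls than the 79.5% over all genes would give, and that difference was not tested. Pik3r1, a regulatory subunit of PI3 kinase, fell by 2.32 ± 0.13 on the log2 scale, and Irs1, a receptor substrate, fell by 1.19 ± 0.19. Foxo1, a transcription factor held back by this pathway, fell by 0.74 ± 0.08, while Grb14, an adaptor related to Grb10, rose by 1.92 ± 0.16.

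Igf1, the sister ligand, fell with culture, to means of 7.92 in old and 7.65 in young cultured cells, against 10.6 in old and 10.4 in young in vivo cells (-2.73 ± 0.16, adjusted p = 8.31e-11). By age in vivo it differed by 0.20 ± 0.14 (adjusted p = 0.581). Of 11 measured IGF ligands, binding proteins and proteases, 7 fell with culture and 1 rose, beside 44.7% of all genes lower and 34.8% higher. The 7 include genes whose means lay below the poly-A control level in every group. By limma 0 were called for age in either condition, with 2 in each at an unadjusted p under 0.05. Over all genes the unadjusted share was 15% in vivo and 3.6% in culture. Igfbp5 (-3.34 ± 0.15), Igfbp3 (-2.60 ± 0.63) and Igfbp6 (-2.12 ± 0.13), which bind IGFs outside the cell, fell furthest beside Igf1. The fall of Igfbp3 was not called in old cells alone (limma, adjusted p = 0.0675). Its cultured means (4.80 in old, 4.63 in young) lay at the control level.

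Of 17 measured genes known to act on Igf2 or on imprints, 12 rose with culture and 3 fell. The 3 that fell include genes whose means lay below the poly-A control level in every group. Over all genes 34.8% were higher and 44.7% lower, and the difference was not tested. By limma 0 of the 17 were called for age. At an unadjusted p under 0.05 there were 2 in vivo and 1 in culture, beside 15% and 3.6% of all genes. Hmga2, a chromatin protein of growing cells, rose by 5.63 ± 0.23. Its mean in young in vivo cells (4.71) lay at the control level, so this rise may be an underestimate. Ezh2, the catalytic subunit of the Polycomb repressive complex, rose by 2.89 ± 0.12. Dnmt1, the maintenance DNA methyltransferase, rose by 2.36 ± 0.15, and Uhrf1, which guides it to newly copied DNA, by 1.96 ± 0.15. Of 14 G1 cyclins, their kinases and inhibitors, 10 rose with culture and 2 fell, beside 34.8% of all genes higher and 44.7% lower. The largest rises were those of Cdk6 (2.30 ± 0.16), the inhibitor gene Cdkn2b (2.05 ± 0.13), Ccnd2 (1.39 ± 0.08) and Ccne2 (1.25 ± 0.14). Ccne2 averaged 4.4 in cultured cells of both ages, and 3.09 in old and 3.24 in young in vivo cells. Its means thus lay below the poly-A control level of 4.75 in every group. The 2 that fell, named after their values were seen, were Cdkn1a (-0.49 ± 0.08) and Cdkn1b (-0.61 ± 0.13), inhibitors of the same family as Cdkn1c. Cdkn2b was also the 1 gene of this list called for age in vivo (0.58 ± 0.12, adjusted p = 0.0489), beside 1.35% of all genes. Its mean was 4.47 in young in vivo cells, below the control level, and 5.05 in old ones. By limma 5 of the 14 had an unadjusted p under 0.05 in vivo, beside 15% of all genes.

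The 5 genes whose log2 values ran most nearly parallel to those of Igf2 over all 16 arrays were Scin (Pearson r 0.986), Rfx2 (0.980), Stmn2 (0.976), Ntng1 (0.968) and Sp5 (0.965). Scin averaged 3.58 in old and 3.58 in young cultured cells, and 6.95 in old and 5.06 in young in vivo cells. The cultured means of Scin and Ntng1 lay below the poly-A control level. Over the 8 in vivo arrays the nearest were Tcf24 (0.978), Pdlim4 (0.977), Ldhb (0.971), Aspa (0.971) and Cfb (0.969). Tcf24 averaged 4.44 in old and 3.38 in young in vivo cells, and its means lay below the control level in every group. Among the members, the r with Igf2 over the 16 arrays was 0.885 for Cdkn1c, 0.718 for Ndn, 0.584 for Peg3, 0.551 for Plagl1, -0.403 for Zim1 and -0.736 for Grb10. Over the 8 in vivo arrays it was 0.457 for Cdkn1c, 0.510 for Ndn, -0.774 for Peg3, -0.826 for Plagl1, -0.449 for Zim1 and -0.306 for Grb10, so Peg3 and Plagl1 change sign with the arrays taken. These values describe the arrays, and the differences between the groups carry most of each.

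Other measures moved with the groups. Of the 9 fibroblast markers 1 was called for age in vivo, Col1a2 (-0.64 ± 0.13), and their mean lay at 10.4 to 10.6 in old and 10.5 to 10.6 in young in vivo cells. With culture 8 of the 9 fell, to a mean of 9.09 to 9.30 in old and 9.05 to 9.37 in young cultured cells. Of 5 tested macrophage markers 1 was called for age in vivo, Csf1r (-1.08 ± 0.15), with the mean of the 7 markers on the array at 5.09 to 5.20 in old and 5.12 to 5.35 in young in vivo cells. Of 4 pericyte and smooth muscle markers 1 was called, Kcnj8 (1.06 ± 0.22), with a mean of 5.34 to 5.66 in old and 5.19 to 5.44 in young in vivo cells. Keratinocyte markers had no call for age, with a mean of 5.01 to 6.40 in old and 4.99 to 5.29 in young in vivo cells. Their group means lay below the poly-A control level for 3 of 8 keratinocyte markers in old and 3 of 8 in young in vivo cells, for 3 of 7 macrophage markers in old and 4 of 7 in young cells, for 3 of 4 pericyte and smooth muscle markers in old and 1 of 4 in young cells, and for 5 of 7 endothelial markers at both ages. The endothelial markers Kdr (7.3 in old, 6.6 in young) and Tek (7.0 and 6.3) averaged above that level in vivo. Their age differences were not called (0.77 ± 0.34 and 0.67 ± 0.38). With culture, over both ages, Kcnj8 (-3.52 ± 0.14), Tek (-2.72 ± 0.25) and Kdr (-2.35 ± 0.20) fell. So did the macrophage marker Cd68 (-2.59 ± 0.20) and the keratinocyte marker Trp63 (-1.69 ± 0.16). Myh11 (4.36 ± 0.14) and the muscle gene Acta1 (5.01 ± 0.16) rose. The difference between the 3' and 5' probe sets of Gapdh, a sign of RNA or cDNA length, was -0.17 to -0.13 in old and -0.12 to -0.04 in young in vivo cells, with no overlap. For actin it was 0.10 ± 0.07 in old and 0.07 ± 0.04 in young cultured cells, against -0.46 ± 0.11 in old and -0.41 ± 0.07 in young in vivo cells. The part of these measures in the results for Igf2, Peg3, Plagl1 and Cdkn1c was not tested.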

How the data were processed

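RNA of 16 dermal fibroblast samples was measured on an Affymetrix mouse array. The values are log2 intensities as deposited by the authors, made with RMA and the package affy per the submitters' processing notes (no version given); RMA corrects background and equalises the arrays' distributions, which makes each change relative to the rest of the array. The log base was read from the values' range, and whether all arrays were normalised together is not given in the sources used here.

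Of 45141 probe sets, 28898 carried 1 gene symbol, 551 several and 15692 were not listed; 28689 were matched to RefSeq by gene ID. For each of 17097 genes the probe set of highest mean was kept, and the gene tested if at least 4 arrays exceeded 3.87, the 25th percentile of all values, leaving 14819. No 2 arrays were identical (0 pairs). Contrasts were fitted with limma 3.58.1 (lmFit, eBayes) in R 4.3.3, after the steps were tested on simulated data. Age comparisons used the 8 arrays of their own condition, because the median residual SD was 0.185 in vivo and 0.129 in culture; culture and interaction used all 16 with 4 group means. The number of arrays limits the precision. Alternatives were other scaling, filters, probe sets, eBayes settings and arrays in the fit, and leaving out each array.

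All 10 members are described. From the other lists up to 4 called genes with the largest change per list and comparison could be named, with uncalled ones named only for their place beside a member. The members and lists were chosen with earlier results of these data known.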

Additional observations from a re-analysis of the deposited data

Results flagged for a closer look

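The age difference of Igf2 in culture minus that in vivo was -2.56 (log2), 1 of the 4 largest values of this interaction among all tested genes, and it is given here because the 2 conditions differ. In vivo each of the 4 old arrays lay above each of the 4 young ones, while in culture the groups overlapped. On the second Igf2 probe set the value was -2.24. Its cultured means (4.77 in old, 4.72 in young) lay at the poly-A control level of 4.75, where an age difference is understated. That value therefore cannot show that the age difference itself changed in culture. On the main probe set the cultured means (5.17 in old, 5.46 in young) lay above this level but not far from it. Since earlier results for Igf2 led to its choice, no test is attached. No member had a sample that stood apart from the rest of its group by Dixon's criterion.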

How the results depend on the processing

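Over the 7 members and all alternatives, 848 of the repeated values kept their direction and their side of the threshold (or moved by less than 1 SD), 19 lost a call, 8 gained one, 3 moved by more and none changed sign with a call. With all 16 arrays in one fit 900 genes were called for age in vivo, against 200, and 1 tested member, against 2, as was the case (1) when a gene's probe sets were averaged. Leaving out 1 array gave 60 to 306 genes and 0 to 2 members. For the interaction, leaving out 1 array gave 44 to 200 genes, against 87, and 0 to 1 members; the mean over probe sets gave 1, and the second Igf2 probe set, added after seeing the data, gave -2.24. That probe set, whose cultured means lay at the poly-A control level, also gave a culture difference of -3.74 in old cells and -2.62 over both ages. Over all alternatives the culture difference of Igf2 over both ages ranged from -3.14 to -2.62. After cyclic loess Grb10 lost its rise in old (0.08) and young cells (0.19), and after scaling to the 75th percentile in old cells (0.19); Ndn in young cells gained a call under both (-0.63 and -0.52), and Zim1 under cyclic loess (0.19 over both ages). The cause of these shifts was not tested. Scaling to the 75th percentile moved the all-gene culture median by -0.20, and 31.6% of culture calls were then higher, against 43.7%. Zim1 was not tested under the stricter filter. No paired analysis was possible because the labels do not say which arrays share a mouse or a day, and replicate numbers only follow the order of the samples.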
